A study of Homo sapiens with 2 samples.

Results

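The genes described are 10 targets and determinants of response to drugs that act on DNA replication: PARP1, SLFN11, TOP1, TOP2A, RRM1, RRM2, ATR, CHEK1, WEE1 and PKMYT1. They were chosen by name and not by a measured value, though with earlier results of these data known. All 10 were found among the 33538 genes of the count matrices of CHLA9 and TC71, a pair of established Ewing sarcoma cell lines. Ewing sarcoma is a tumor of bone and soft tissue in children and young adults that is driven by a fusion of EWSR1 with an ETS gene. The CHLA9 medium was IMDM with insulin-transferrin-selenite and 20% serum, and that of TC71 was RPMI with 10% serum. No drug was given to either line. Each line is 1 droplet library made with the 10x 3' kit, and CHLA9 was sequenced a second time on another instrument. Line, medium and sequencing therefore cannot be told apart, and with a single library a line no difference could be tested, since cells are not replicates.

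Replication stress is the slowing or stalling of replication forks, which exposes single-stranded DNA and activates the kinase ATR. ATR phosphorylates CHEK1, which holds back CDK activity while forks are repaired, and the kinases WEE1 and PKMYT1 restrain CDK1 directly by inhibitory phosphorylation. PARP inhibitors and topoisomerase poisons trap their target enzymes on DNA, gemcitabine and hydroxyurea deplete nucleotides through ribonucleotide reductase, and SLFN11 is known as a factor that blocks stressed forks and sensitizes cells to these agents. Several of these drugs are used or under study in Ewing sarcoma.

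A barcode counted as a cell from 5000 unique molecular identifiers (UMIs) and 2000 genes upward, if mitochondrial genes took no more than 15% of its UMIs. In CHLA9, 4524 of 5077 barcodes were kept, with 174975302 UMIs and a median of 34656 a cell, and in TC71 1729 of 8468 with 58355173 UMIs and a median of 33370. Barcodes that were left out held 1.97% of all UMIs in CHLA9 and 22.6% in TC71, and those under 5000 UMIs held 0.404% and 11.8%. The libraries shared 16 barcodes, of which 3 were kept in both. All 8 Ewing sarcoma markers examined, CD99, FLI1 and NKX2-2 among them, were above 5 counts per 1e+06 UMIs (CPM) in both lines. Of 9 markers of blood, endothelial, liver and epithelial cells, only the keratin gene KRT8 exceeded 5 CPM, at 6.98 CPM in CHLA9 and 8.62 in TC71. Levels below are UMIs summed over the kept cells of a line as CPM, with exact 95% Poisson intervals. Each molecule is counted once near its 3' end, so these levels were not divided by transcript length, and the intervals cover counting error only.

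The promoters of 8 genes were held in the RefSeq table (GRCh38.p14). Those of TOP2A, RRM2 and RRM1, which of these genes ranged most over the cell cycle phases in CHLA9, are shown. TOP1, which ranged less but was not flat in CHLA9 (1.44-fold), is shown beside them. They run from 250 bases before to 50 bases after the annotated start, 5′ to 3′ on the strand of the gene. Capitals mark CCAAT boxes and the words TTTGAA and TTCGAA of the cell cycle homology region (CHR), each searched on both strands. The intervals are chr17:40417847-40418146 on the minus strand for TOP2A, chr2:10122489-10122788 on the plus strand for RRM2, chr11:4094435-4094734 on the plus strand for RRM1 and chr20:41028572-41028871 on the plus strand for TOP1.
TOP2A: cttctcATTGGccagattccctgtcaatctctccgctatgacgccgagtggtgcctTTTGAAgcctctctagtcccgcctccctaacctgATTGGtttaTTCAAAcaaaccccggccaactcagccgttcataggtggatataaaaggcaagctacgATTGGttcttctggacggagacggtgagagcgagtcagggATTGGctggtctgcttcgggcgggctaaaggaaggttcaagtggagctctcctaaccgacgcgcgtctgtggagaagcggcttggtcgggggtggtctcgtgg
RRM2: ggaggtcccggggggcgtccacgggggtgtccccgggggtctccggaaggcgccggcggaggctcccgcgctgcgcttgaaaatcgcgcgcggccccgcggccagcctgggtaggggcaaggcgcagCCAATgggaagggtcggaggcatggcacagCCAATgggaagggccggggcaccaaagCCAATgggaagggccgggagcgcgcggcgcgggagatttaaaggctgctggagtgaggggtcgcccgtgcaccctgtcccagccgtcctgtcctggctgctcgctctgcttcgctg
RRM1: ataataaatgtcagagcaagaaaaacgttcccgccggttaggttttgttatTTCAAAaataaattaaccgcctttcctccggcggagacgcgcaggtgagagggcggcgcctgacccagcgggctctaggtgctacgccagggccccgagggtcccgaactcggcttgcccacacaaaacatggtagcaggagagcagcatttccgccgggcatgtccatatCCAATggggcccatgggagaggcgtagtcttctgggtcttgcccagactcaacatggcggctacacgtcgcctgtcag
TOP1: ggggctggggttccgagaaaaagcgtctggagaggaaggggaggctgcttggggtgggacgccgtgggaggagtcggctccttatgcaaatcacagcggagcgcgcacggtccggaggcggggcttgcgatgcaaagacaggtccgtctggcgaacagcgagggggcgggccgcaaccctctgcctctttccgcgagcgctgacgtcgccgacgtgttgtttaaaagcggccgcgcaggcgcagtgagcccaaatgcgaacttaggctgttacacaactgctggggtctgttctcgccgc

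The TOP2A promoter held 4 CCAAT boxes, at -244, -160, -93 and -53 from the start (the 5′ base of each match), and 2 CHR words at -194 and -151. The RRM2 promoter shown held 3 CCAAT boxes, at -123, -93 and -66, and no CHR word, and that of RRM1 held 1 of each, at -28 and -199. TOP1, PARP1 and ATR had neither. SLFN11, which stayed under 1.5-fold over the phases in both lines, held a CCAAT box at -86. Of the 11 promoters of the 8 genes, some of which overlap, 8 held a CCAAT box and 2 a CHR word, while 34.6% and 16.4% of the 35116 promoters in the table did. By gene, 5 of the 8 held a CCAAT box and 2 a CHR word. The CHEK1 windows share a box, so the count of promoters repeats it. None of these 11 promoters held the E2F words TTTCCCGC, TTTCGCGC, TTTGCCGC or TTTGGCGC, which 3.31% of all promoters held. In the promoters shown, no capitalized words overlapped. A match describes letters in this window and not a bound site.

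TOP2A and PKMYT1 were more abundant in CHLA9, and the other 8 genes differed by less than 1.5-fold between the lines. TOP2A, the type II topoisomerase that decatenates chromosomes and is the target of etoposide and doxorubicin, stood at 862 CPM (857 to 866) in CHLA9 and 273 CPM (268 to 277) in TC71, 3.16-fold apart. PKMYT1, the membrane-bound inhibitory kinase of CDK1, stood at 40.8 CPM (39.8 to 41.7) and 16.2 CPM (15.2 to 17.3), 2.51-fold apart. These 2 of 10 genes passed 1.5-fold toward CHLA9 and 0 toward TC71, while among the 10774 genes with at least 5 CPM in 1 line or the other 32.0% were higher in CHLA9 by that fold and 17.7% were higher in TC71. The members' count therefore did not exceed that of genes at large. The median log2 difference, CHLA9 minus TC71, was 0.21 over all genes and 0.25 over the 10 members.

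**Figure D1:**
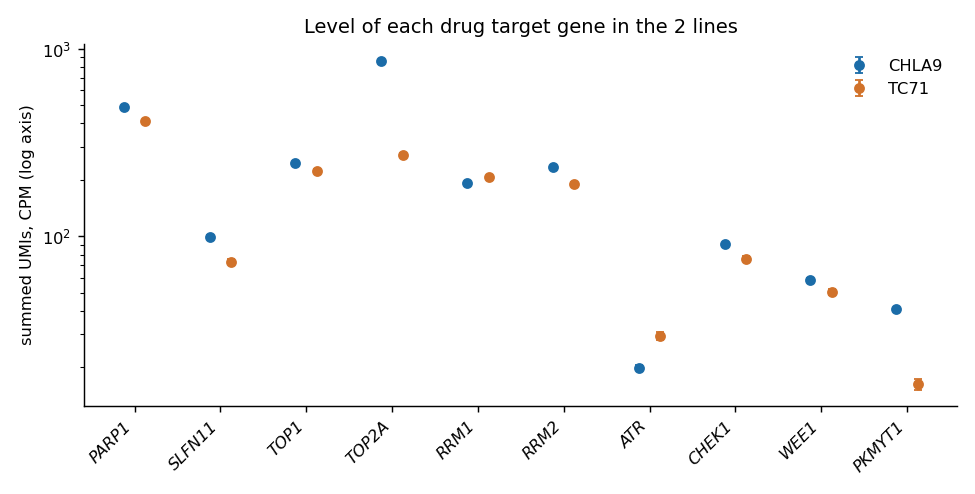
Level of each gene as CPM on a log axis, with 1 point a line from summed UMIs and bars for exact 95% Poisson intervals, which are mostly smaller than the points. TOP2A (862 and 273 CPM) and PKMYT1 (40.8 and 16.2 CPM) are the genes over 1.5-fold apart, and ATR is higher in TC71.

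PARP1 encodes the poly(ADP-ribose) polymerase that senses strand breaks and is trapped by olaparib and talazoparib. It was abundant in both lines, at 489.8 CPM (487 to 493) in CHLA9 and 412 CPM (406 to 417) in TC71. The log2 difference of 0.25 (0.23 to 0.27) was close to the shift over all genes. PARP1 was the leading member in TC71 and second to TOP2A in CHLA9. SLFN11 stood at 99.8 CPM (98.3 to 101) in CHLA9 and 73.1 CPM (70.9 to 75.3) in TC71, a log2 difference of 0.45 (0.40 to 0.50). TOP1, the type I topoisomerase poisoned by irinotecan and topotecan, was at 245 CPM (243 to 247) and 223 CPM (220 to 227), which is a log2 difference of 0.13.

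RRM1, the large subunit of ribonucleotide reductase and the subunit that gemcitabine inactivates, was at 193 CPM (191 to 195) in CHLA9 and 206 CPM (202 to 209.6) in TC71. RRM2, the regulated small subunit and the target of hydroxyurea and triapine, was at 233 CPM (231 to 235) and 190.2 CPM (187 to 194). The log2 differences were -0.09 for RRM1 and 0.29 for RRM2, and that of RRM1 was 0.0096 when all barcodes were summed. Within S and G2M cells the RRM1 levels of the lines did not differ beyond their intervals, while in G1 cells both subunits were higher in TC71, by log2 differences of -0.53 for RRM1 and -0.87 for RRM2. ATR, the apical kinase of the stress response, was the member highest in TC71 relative to CHLA9, at 29.4 CPM (28.0 to 30.8) against 19.9 CPM (19.3 to 20.6). That 1.48-fold difference lay just inside the limit, and with the libraries scaled by the median ratio over all genes its log2 difference became -0.77, past the limit. CHEK1, the effector kinase below ATR, was at 90.9 CPM in CHLA9 and 76.0 in TC71, and WEE1, the nuclear kinase that phosphorylates CDK1 and CDK2, was at 58.8 and 50.4 CPM. Their log2 differences of 0.26 and 0.22 were also close to the shift over all genes.

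In order of level, CHLA9 ran TOP2A, PARP1, TOP1, RRM2, RRM1, SLFN11, CHEK1, WEE1, PKMYT1 and ATR, and no neighbors had overlapping intervals. In TC71 the order was PARP1, TOP2A, TOP1, RRM1, RRM2, CHEK1, SLFN11, WEE1, ATR and PKMYT1, where the intervals of CHEK1 and SLFN11 overlapped. PKMYT1 overlaps PAQR4 on the opposite strand on chromosome 16, and PAQR4 was likewise higher in CHLA9, at 36.2 against 9.51 CPM. A second gene on that strand, KREMEN2, was at 0.857 CPM in CHLA9 and 3.03 CPM in TC71. CHEK1 overlaps STT3A on the same strand on chromosome 11, which was at 44.6 CPM in CHLA9 and 27.9 CPM in TC71. How reads of the overlaps were assigned, and their part in these values, was not tested. In GENCODE 44 on GRCh38 all 10 are protein-coding. On the minus strand lie PARP1 (chr1:226360210-226408154), SLFN11 (chr17:35350305-35373701), TOP2A (chr17:40388525-40417896), ATR (chr3:142449007-142578733) and PKMYT1 (chr16:2968024-2980479). On the plus strand lie TOP1 (chr20:41028822-41124487), RRM1 (chr11:4094707-4138932), RRM2 (chr2:10120698-10211725), CHEK1 (chr11:125625163-125676255) and WEE1 (chr11:9573670-9593457). Pseudogenes of PARP1, TOP1, RRM2 and WEE1 are annotated and were not counted as separate genes here.

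To follow timing, each cell was assigned a phase from its S and G2M gene scores, with RRM1, RRM2 and TOP2A removed from the scored genes so that no member set its own phase. In CHLA9, 22.8% of cells were in G1, 36.5% in S and 40.7% in G2M. In TC71 the shares were 12.6%, 48.7% and 38.7%, so that only 218 TC71 cells were in G1. Scores of 5.31% of CHLA9 cells and 10.1% of TC71 cells lay within 0.02 of a cutoff, 85 of the 218 TC71 G1 cells among them. When all genes entered the scoring, 21.9% of TC71 cells and 19.5% of CHLA9 cells were in G1.

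Between the phases, 6 of the 10 genes ranged by at least 1.5-fold in CHLA9 and 3 in TC71, against 12.0% and 10.1% of all genes with at least 5 CPM. TOP2A, RRM1 and RRM2 come from the phase lists themselves, so their ranges were to be foreseen although they were not scored. Outside those lists, PKMYT1, CHEK1 and WEE1 passed in CHLA9 and PKMYT1 and WEE1 in TC71. TOP2A ranged most. In CHLA9 it went from 212 CPM (207 to 217) in G1 through 381 CPM (376 to 386) in S to 1499.8 CPM (1491 to 1508) in G2M, a 7.07-fold range. In TC71 the levels were 151 CPM (142 to 161), 143 CPM (138 to 147) and 450.0 CPM (442 to 458), a 3.15-fold range. In both lines the G2M level lay far above the other phases.

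PKMYT1 and RRM2 were highest in S. In CHLA9, the G1, S and G2M levels of PKMYT1 were 11.7 CPM (10.5 to 12.9), 66.9 CPM (64.9 to 69.0) and 32.6 CPM (31.3 to 33.8). In TC71 they were 10.99 CPM (8.55 to 13.9), 21.1 CPM (19.4 to 22.8) and 12.2 CPM (10.8 to 13.6). The range was thus 5.74-fold in CHLA9 and 1.92-fold in TC71. RRM2 in CHLA9 went from 76.9 CPM (73.9 to 79.9) in G1 to 287 CPM (283 to 291) in S and stayed at 255 CPM (252 to 259) in G2M, 3.74-fold over the phases. In TC71 it was at 140.2 CPM (131 to 149.7) in G1, 199 CPM (194 to 205) in S and 193 CPM (187 to 198) in G2M, and the intervals of S and G2M overlapped.

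RRM1 followed RRM2 with a smaller swing, 1.70-fold in CHLA9 and 1.16-fold in TC71, with its peak in S in both. CHEK1 peaked in S, at 114 CPM in CHLA9 (1.54-fold range) and 85.0 in TC71 (1.28-fold range). WEE1 peaked in G2M, at 64.9 and 61.5 CPM, with ranges of 1.65 and 1.58, and was lowest in G1 at 39.3 and 38.9 CPM. The CHLA9 WEE1 levels in S and G2M had overlapping intervals, whereas in TC71 the S level of 43.2 CPM lay apart from that in G2M.

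**Figure D2:**
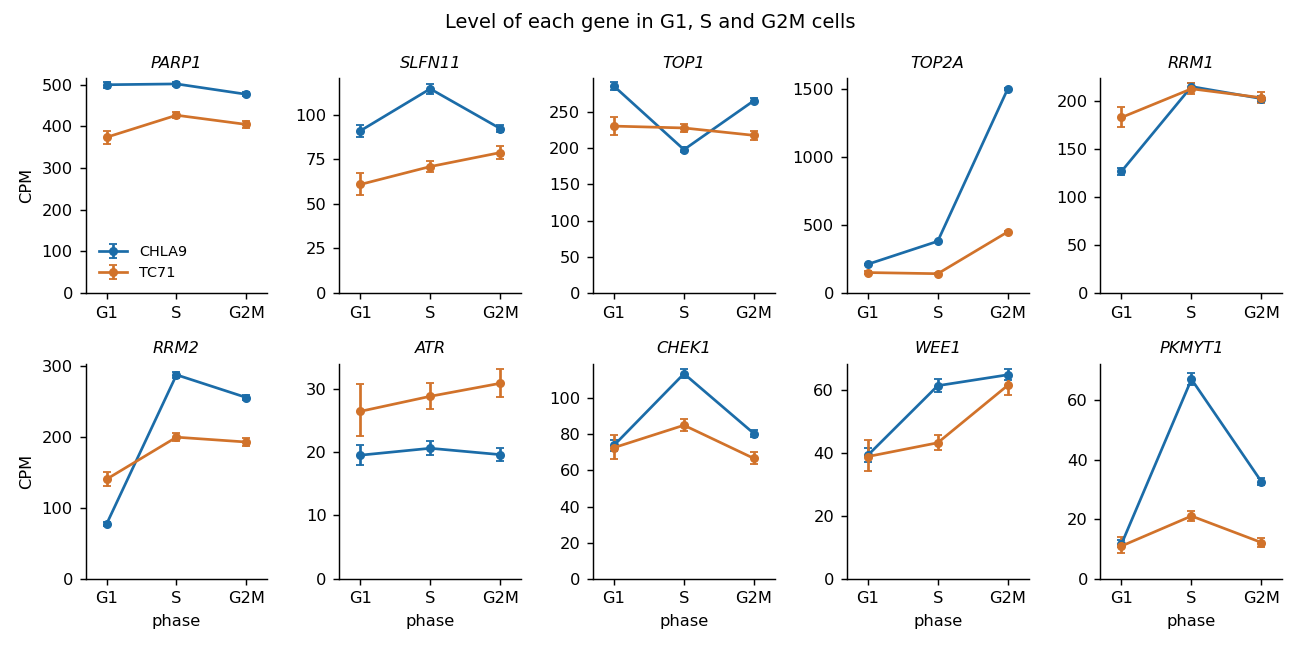
CPM of each gene in cells assigned to G1, S and G2M for CHLA9 (blue) and TC71 (orange), on linear axes from 0, with exact 95% Poisson intervals. TOP2A climbs to 1499.8 CPM in G2M in CHLA9 and 450.0 in TC71, PKMYT1 peaks in S in both lines, and the ATR intervals overlap over the phases.

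PARP1, SLFN11, TOP1 and ATR stayed under 1.5-fold over the phases in both lines. PARP1 ranged 1.05-fold in CHLA9 and 1.14-fold in TC71. The 3 ATR intervals overlapped in each line, from 19.5 to 20.6 CPM in CHLA9 and from 26.4 to 30.9 CPM in TC71, so no difference between the phases was detectable for it at this depth. TOP1 was lowest in S in CHLA9, at 198 CPM (194 to 201) against 285 in G1 and 265 in G2M, a 1.44-fold range. In TC71 it held at 230.0 CPM in G1, 227 in S and 217 in G2M. SLFN11 was highest in S in CHLA9, at 114 CPM against 90.9 in G1 and 92.1 in G2M, and highest in G2M in TC71, at 78.7 CPM against 60.8 in G1 and 70.9 in S. The peak phase was the same in both lines for 8 of 10 genes, all but SLFN11 and ATR, while it was the same for 55.7% of all genes. TOP2A, RRM1 and RRM2 are among the 8 and come from the phase lists, so their shared peak was to be foreseen. The G1 peak of TOP1 in TC71 overlapped even its lowest phase. The interval of the peak overlapped that of the next phase for PARP1 and WEE1 in CHLA9, for TOP1, RRM1 and RRM2 in TC71 and for ATR in both.

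The gap between the lines in TOP2A and PKMYT1 lay mostly in cells of S and G2M. For TOP2A the CHLA9 level was 1.40-fold (1.31 to 1.502) that of TC71 in G1, 2.67-fold (2.58 to 2.76) in S and 3.33-fold (3.27 to 3.40) in G2M. For PKMYT1 it was 1.06-fold (0.819 to 1.39) in G1, 3.18-fold (2.91 to 3.47) in S and 2.68-fold (2.37 to 3.03) in G2M. RRM2 changed order: it was 1.82-fold higher in TC71 in G1, and 1.44-fold higher in CHLA9 in S (1.40 to 1.48). TOP1 changed order as well, by smaller folds. It was 1.24-fold higher in CHLA9 in G1 and 1.22-fold in G2M, but 1.15-fold higher in TC71 in S. SLFN11 passed the limit in S cells, where CHLA9 was 1.61-fold higher, and ATR in G2M cells, where TC71 was 1.57-fold higher.

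The G1 values turned on which genes entered the scoring. With all genes scored, the CHLA9 level of PKMYT1 in G1 was 9.27 CPM and that of TC71 19.3 CPM, a log2 difference of -1.06, while TOP2A was 1.58-fold higher in CHLA9 and RRM2 2.39-fold higher in TC71. In S and G2M the gaps in TOP2A and PKMYT1 stayed between 2.60-fold and 3.65-fold.

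**Figure D3:**
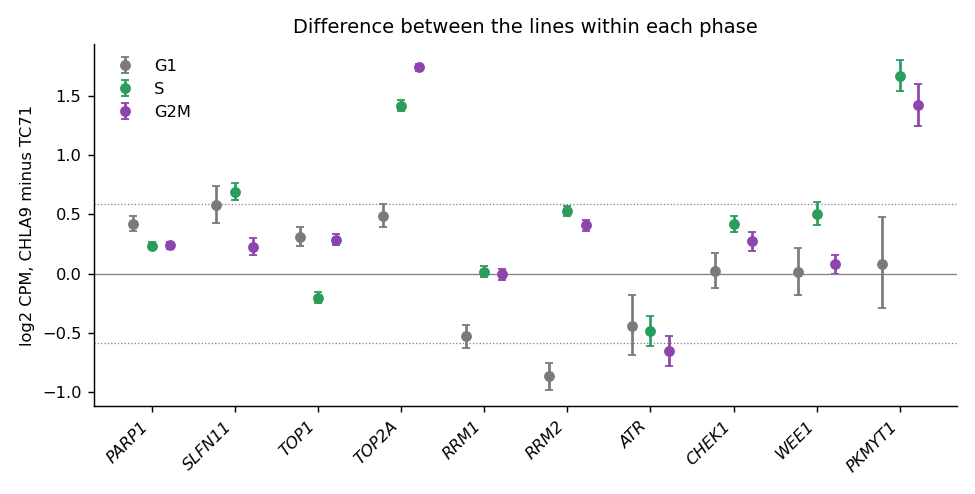
Difference between the lines within each phase as log2 CPM, CHLA9 minus TC71, with exact 95% intervals for counting error. Dotted lines mark 1.5-fold in either direction. TOP2A and PKMYT1 lie above the upper line in S and G2M, RRM2 lies below the lower line in G1, and ATR lies below 0 in all phases.

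For finer timing, the angle of each cell between its S and G2M scores was split into 8 sectors, the first holding cells low in both. The scores alone set the order of the sectors, and landmark genes outside the scored lists were read against it. MCM3, a replication licensing factor, peaked in sector 4 in both lines, and CCNA2, CCNB1 and PLK1, regulators of mitotic entry, in sector 7. In TC71, sector 3 overlapped with the peak for MCM3 and sector 6 for CCNA2. CCNE1 was highest in sector 3 in CHLA9, where sector 4 overlapped with the peak. In TC71 it was highest in sector 4, where all other sectors but 7 overlapped, so its peak was not resolved between the lines. HIST1H4C peaked in sector 5 in CHLA9 and in sector 4 in TC71. PKMYT1, RRM2 and CHEK1 peaked in sector 4 in both lines, with MCM3, although sector 5 overlapped with the peak for RRM2 in CHLA9. In TC71 the peak was less resolved, and overlapped with sectors 2, 3 and 5 for PKMYT1 and CHEK1 and with sectors 5 and 6 for RRM2. TOP2A peaked in sector 7 in both, with the mitotic genes, at 1726 CPM in CHLA9 (1714 to 1738) and 470.4 in TC71 (460.2 to 481), where sector 6 overlapped with the peak. WEE1 peaked in sector 6 in CHLA9 and sector 7 in TC71, where sectors 5 and 6 overlapped with the peak.

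Over the sectors, PKMYT1 moved 10.6-fold in CHLA9, from 7.82 to 83.2 CPM, and 2.55-fold in TC71, from 8.91 to 22.7 CPM. TOP2A moved 10.2-fold and 4.40-fold, and RRM2 5.999-fold and 2.18-fold. The TOP1 level in CHLA9 was highest in sector 8, at 370.4 CPM (358 to 383), and lowest in sector 4, at 187 CPM (182 to 192), opposite in phase to PKMYT1 and RRM2. In TC71 the intervals of TOP1 overlapped with its peak in all sectors but 7. ATR in TC71 was highest in sector 5, which held 51 cells, at 40.1 CPM (31.1 to 50.9), and lowest in sector 1, at 23.5 CPM (17.6 to 30.8), a 1.71-fold range in which sectors 1, 2 and 3 lay apart from the peak. In CHLA9 its intervals overlapped in all sectors, with a 1.15-fold range.

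**Figure D4:**
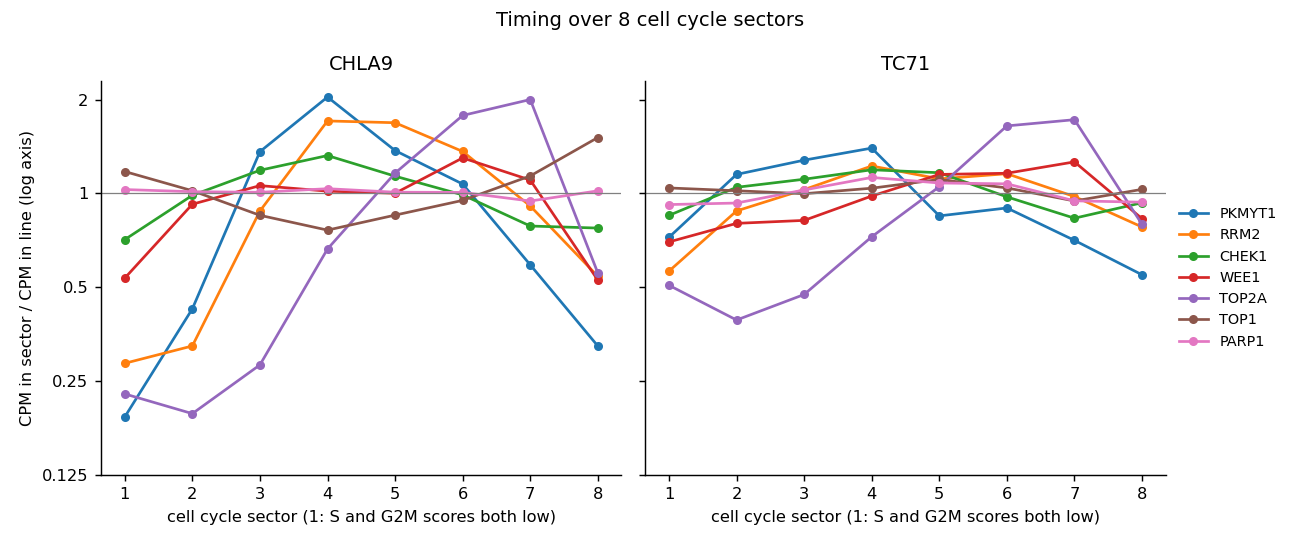
CPM of 7 genes in each of 8 cell cycle sectors over their CPM in the whole line, on a log axis, for CHLA9 (left) and TC71 (right). PKMYT1 and RRM2 peak in sector 4 and TOP2A in sector 7 in both lines. The swings of all genes shown but PARP1 are wider in CHLA9, 10.6-fold against 2.55-fold for PKMYT1.

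The narrower swings of TC71, which PARP1, SLFN11 and ATR did not show, were shared by the landmark genes. CCNB1 moved 12.8-fold over the sectors in CHLA9 and 4.26-fold in TC71, CCNA2 12.0-fold and 2.58-fold, and the histone gene HIST1H4C 17.1-fold and 2.67-fold. In TC71 cells assigned to G1, CCNA2 stood at 82.3 CPM and HIST1H4C at 953 CPM, against 23.4 and 291 CPM in CHLA9. Barcodes under 5000 UMIs held TOP2A and RRM2 at 291 and 182 CPM in TC71, against 273 and 190.2 CPM in its cells, and at 506 and 62.4 CPM in CHLA9, against 862 and 233 CPM. The part of such RNA, and of the phase assignment, in the smaller ranges of TC71 was not tested.

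Genes with the most similar course over the 16 line and sector points were named for each member with at least 20 CPM in both lines, out of 5385 genes. The points share libraries and depth, so the Pearson r values are a description. TOP2A ran with the mitotic genes AURKA (r = 0.992), GTSE1 and CDCA3, all of which were among the scored G2M genes. RRM1 and RRM2 both ran closest to TYMS, the thymidylate synthase and a scored S gene, with r = 0.984 and 0.987, and RRM1 was among the 3 genes closest to RRM2. CHEK1 ran with CLSPN, the adaptor that ATR uses to activate CHEK1 (r = 0.986), and with FEN1 and PCNA, all scored S genes. PARP1 was closest to HNRNPU (0.952), API5 and KDM1A, TOP1 to EIF2AK4 (0.952), RARS and PPID, SLFN11 to EXOC6 (0.935), CHAMP1 and NUP153, and WEE1 to STIL (0.913), HSPA8 and AGAP1, none of them scored genes.

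The share of cells with at least 1 UMI was compared at an equal depth of 10000 UMIs a cell, reached by thinning. The 14 CHLA9 and 59 TC71 cells that were shallower were left out. PARP1 was found in nearly every cell, 98.8% in CHLA9 (98.4 to 99.1) and 97.8% in TC71 (97.0 to 98.4). TOP2A was found in 90.3% (89.4 to 91.1) and 80.2% (78.2 to 82.1), TOP1 in 89.8% and 86.8%, and SLFN11 in 61.2% (59.7 to 62.6) and 48.5% (46.1 to 50.9). At full depth the SLFN11 shares were 91.8% and 83.2%. ATR was found in the fewest CHLA9 cells, 17.2% (16.1 to 18.3), and in 23.6% of TC71 cells (21.6 to 25.7), or 49.2% and 57.8% at full depth. PKMYT1 was found in 29.4% (28.0 to 30.7) and 15.03% (13.3 to 16.8). Intervals were apart for all 10 genes, though only just for PARP1, with 7 higher in CHLA9 and 3 in TC71, and this held for 47.2% and 28.8% of all genes. RRM2 was one of the 3, at 82.6% in TC71 and 74.9% in CHLA9, although its CPM was higher in CHLA9, so no order was read from its share. Each library is a single line, so no cell type that should lack these genes was at hand as a background.

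The PKMYT1 share was highest in S and the TOP2A share in G2M in both lines. PKMYT1 was found in 7.91% of CHLA9 cells in G1 (6.33 to 9.74), 48.5% in S and 24.1% in G2M, and in 8.96%, 19.5% and 11.3% of TC71 cells. RRM2 was found in 42.3% of CHLA9 cells in G1, 83.1% in S and 85.9% in G2M, and in 67.7%, 84.5% and 84.7% of those of TC71, so that its share was lowest in G1 but not highest in S. The WEE1 share in CHLA9 was 47.2% in S and 45.02% in G2M, although its CPM was highest in G2M. PARP1 and ATR shares differed little, from 16.3% in G1 to 17.8% in G2M for ATR in CHLA9. TOP2A was found in 99.8% of CHLA9 and 94.6% of TC71 G2M cells, and still in 74.2% and 68.2% of G1 cells.

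**Figure D5:**
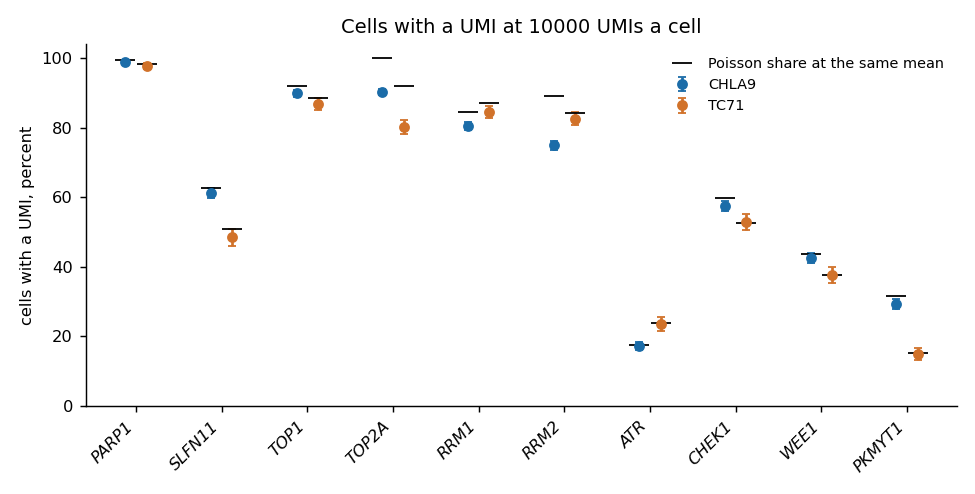
Percent of cells with at least 1 UMI of each gene after thinning to 10000 UMIs a cell, with exact 95% Clopper-Pearson intervals. Black dashes give the share that a Poisson count of the same mean would have. TOP2A in both lines, at 90.3% and 80.2%, and RRM2 in CHLA9, at 74.9%, lie farthest below their dashes.

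A Poisson count with the same mean would give TOP2A in 99.9% of CHLA9 and 92.0% of TC71 cells, and RRM2 in 88.9% and 84.3%. The excess spread was measured as variance over mean, which is 1 for a Poisson count. TOP2A reached 8.28 in CHLA9, with up to 51 UMIs in a cell around a median of 5, and 2.49 in TC71. RRM2 reached 2.12 in CHLA9 and 1.13 in TC71. In CHLA9, TOP1 (1.32), RRM1 (1.26), PKMYT1 (1.21) and PARP1 (1.203) were also past 1.2, so that 6 of 10 genes passed in CHLA9 and 1 in TC71, against 8.60% and 7.37% of all genes with a mean of at least 0.05 UMIs a cell. Within G2M cells alone TOP2A kept a ratio of 4.91 in CHLA9 and 1.85 in TC71. ATR stayed at 1.07 and 1.05, near the Poisson value, but at means of only 0.194 and 0.274 UMIs a cell in CHLA9 and TC71. PARP1 passed in CHLA9 at a mean of 4.92. At the same relative spread this ratio grows with the mean, and the background genes were not matched to the members by level. The counts past 1.2 therefore do not set the members apart from genes at large.

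Related genes were counted from lists by pathway, beside 32.0% of all genes past 1.5-fold toward CHLA9 and 17.7% toward TC71. These counts are small and describe the lists without setting them apart from genes at large. In PARP1's own pathway of single-strand break repair, 3 of 9 tested genes were past 1.5-fold toward CHLA9 and 0 toward TC71. Among them were the ligase LIG3 (32.1 and 9.01 CPM) and the scaffold XRCC1 (37.7 and 23.2 CPM). PARP2 passed by its phase range alone, 1.78-fold with a peak in S in CHLA9. In the Schlafen family, 1 of 2 tested genes was past the limit, toward TC71. SLFN12 had 12 UMIs in CHLA9 and 1663 in TC71, or 0.0686 and 28.5 CPM, a log2 difference of -8.70 (-9.65 to -7.89). SLFN5 was at 19.9 and 21.1 CPM and ranged 1.51-fold over the phases in CHLA9, with its peak in G1, and 1.62-fold in TC71, with its peak in G2M.

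In the list of other topoisomerases and the repair genes TDP1 and TDP2, 3 of 6 genes were past 1.5-fold toward CHLA9 and 0 toward TC71: TOP3A, the type IA enzyme that acts with BLM (48.4 and 11.2 CPM), the mitochondrial TOP1MT (29.6 and 14.4 CPM) and TOP3B (15.9 and 9.13 CPM). TOP2B, the paralog of TOP2A, was level at 139 and 141 CPM. TDP1, which removes trapped TOP1 from DNA, was at 21.5 and 16.5 CPM and ranged 1.86-fold over the phases in CHLA9. In nucleotide supply, 1 of 12 genes was past the limit toward CHLA9 and 2 toward TC71, namely SAMHD1, a dNTP hydrolase (8.41 and 17.1 CPM), and RRM2B, the p53-inducible small subunit (8.96 and 17.3 CPM). The phase range passed in 6 of these 12 genes in CHLA9, where 12.0% of all genes did, with the thymidine kinase TK1 (3.40-fold) and the nucleoside transporter SLC29A1 (2.01-fold) among them, and in 0 in TC71.

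In ATR signalling, 6 of 15 genes were past the limit toward CHLA9 and 2 toward TC71. CLSPN was at 305 and 128 CPM, the single-strand binding protein gene RPA1 at 122 and 48.9 CPM, and the clamp subunit gene RAD9A at 25.2 and 12.2 CPM. CHEK2 was at 24.8 and 31.2 CPM and ranged 2.13-fold over the phases in CHLA9 and 1.65-fold in TC71, with its peak in G2M. The phase range passed in 5 of the 15 genes in CHLA9 and 6 in TC71. Among regulators of CDK1 and CDK2, 11 of 12 passed the phase range in CHLA9 and 9 of 11 in TC71. CDK1 ranged 12.0-fold and 3.42-fold, CCNB1 9.12-fold and 3.50-fold, CCNA2 8.12-fold and 2.18-fold, and CDC25C, the phosphatase that opposes WEE1 and PKMYT1, 7.76-fold and 3.49-fold, all peaking in G2M. CDK1, CCNB2, CDC25C and CCNE2 were among the genes that set the phases, as were CLSPN and TIPIN of ATR signalling and TYMS of nucleotide supply, so their ranges follow from the assignment. Without them, 7 of 8 CDK regulators passed in CHLA9 and 5 of 7 in TC71, 3 and 4 of 13 ATR signalling genes, and 5 and 0 of 11 nucleotide supply genes, beside 12.0% and 10.1% of all genes. Between the lines, 2 of these 12 genes passed toward CHLA9 and 0 toward TC71. The median log2 difference of the lists with more than 2 tested genes, CHLA9 minus TC71, was -0.32 for single-strand break repair, toward TC71 although its 3 genes past the limit were higher in CHLA9, 0.59 for topoisomerases and their repair, 0.24 for nucleotide supply, 0.09 for ATR signalling and 0.21 for CDK control, beside 0.21 over all genes.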

How the data were processed

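CHLA9 and TC71 cells were profiled with the 10x 3' v3.1 kit, 1 library a line. Using Cell Ranger 3.1.0 and hg38, the authors tallied UMIs for each gene in each barcode, and they deposited these raw counts without scaling. The other samples of the series were not analysed here. The members and the related lists were chosen with earlier results of these data known.

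UMIs of the kept cells were summed per line, phase or sector and scaled to 1e+06. Ratios have exact conditional binomial intervals, and shares exact Clopper-Pearson ones. With 1 library a line no test was made. A gene counted as past the limit at 1.5-fold, given at least 5 CPM. Seurat 5.3.0 (R 4.3.3) scored the phases of each library on 41 S and 53 G2M genes and on genes found in at least 10 cells, with a seed of 1. Thinning and intervals used numpy 2.4.6, pandas 2.3.3 and scipy 1.17.1 under Python 3.11.15, and plots matplotlib 3.10.9. Doublets were not called, so an alternative left out the 8% of cells with the most UMIs. The ratio, interval and thinning steps were tested on simulated data.

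All members were named. From each related list, at most 4 genes past 1.5-fold between the lines or phases were named, largest first, with the remaining genes past the fold between the lines given as counts; a gene that this rule would name is not reported here. TOP2B was named outside this rule, after its values were seen, as were the landmark ranges within G1. Coordinates are from GENCODE 44 on GRCh38 and promoters from RefSeq on GRCh38.p14. Alternatives covered cell filters, scaling, level limits, phase genes, seeds, depth and doublets, and the phases with all genes scored within each line were added after seeing the data.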

Additional observations from a re-analysis of the deposited data

Results flagged for a closer look

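The results here moved one way in CHLA9 and the other way in TC71, or came from barcodes that the cell filter left out. With 1 library a line, none of the differences was tested.

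The log2 difference of PARP1, G2M minus G1, was -0.068 in CHLA9 and 0.11 in TC71. That of SLFN11, G2M minus S, was -0.31 in CHLA9 and 0.15 in TC71. For TOP1, G2M minus S, it was 0.42 in CHLA9 and -0.066 in TC71.

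In the 553 barcodes left out of CHLA9, whose median mitochondrial share was 50.4%, RRM2 was the member lowest relative to the kept cells, at 103.6 CPM against 233. ATR was the highest relative to them, at 24.5 CPM (19.6 to 30.2, from 86 UMIs) against 19.9 (19.3 to 20.6), and these intervals overlapped. In the 6739 barcodes left out of TC71, whose median was 1269 UMIs, PARP1 was lowest, at 251 CPM against 412, and PKMYT1 was highest, at 19.5 CPM against 16.2. These levels pool barcodes of all depths. In the TC71 barcodes under 5000 UMIs alone, PARP1 was at 315 CPM and PKMYT1 at 15.5 CPM, so PKMYT1 was not above the kept cells there.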

How the results depend on the processing

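No paired analysis was possible because the lines are single libraries that share no replicate. The intervals cover counting error only, and the spread between cultures is unknown. The count of members past 1.5-fold toward TC71, 0 over all cells, became 1 with mitochondrial and ribosomal protein genes left out of the total, 1 with scaling by the median ratio, 1 in G1 cells and 1 in G2M cells. That toward CHLA9, 2 over all cells, became 0 in G1 cells. With all genes in the phase scoring, chosen after seeing the data, G1 cells gave 1 member toward CHLA9 and 3 toward TC71, and G2M cells 1 toward TC71. In that G1 setting PKMYT1 was reversed, with a log2 difference of -1.06 against 1.33 over all cells. Against all cells, the sign also changed for RRM2 (-1.26 against 0.29), CHEK1 (-0.16 against 0.26) and WEE1 (-0.17 against 0.22). These contrasts change both the phase and the scoring. In G1 cells of the main scoring, RRM2 was already at -0.87. PKMYT1 was at 0.085 there, CHEK1 at 0.025 and WEE1 at 0.014, each with an interval that included 0. With a limit of 2-fold, 3 members passed across the phases in CHLA9 and 1 in TC71, against 6 and 3. Thinned to 5000 UMIs, 1 member had a higher share of cells in TC71 in place of 3, and 2 passed the limit on variance over mean in CHLA9 in place of 6. The count with the same peak phase stayed within 1.5 times of 8 under all 8 alternatives tried for it. That limit is loose, since a count near the share of all genes, 55.7%, would also meet it.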

Other observations

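Cells were also described by how many of the 10 genes they held at once after thinning to 10000 UMIs. The median cell held 6 in both lines. All 10 were found in 24 of 4510 CHLA9 cells and 4 of 1670 TC71 cells, and none of these cells was in G1. In CHLA9 the median was 5 genes in G1 and 7 in S and G2M, and in TC71 it was 5 in G1 and 6 in S and G2M.

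Spearman's rho was taken over the cells of a line for all 45 pairs of the 10 genes, as a description with no test, since the points share 1 library and counts are sparse. In CHLA9 the highest was TOP2A with RRM2, at 0.338. Within phases this pair was at 0.207 in G1, 0.440 in S and 0.0516 in G2M, and over all TC71 cells at 0.0930. The lowest in CHLA9 was TOP1 with PKMYT1, at -0.152. The median pair was at 0.0228. In TC71 the highest was PARP1 with WEE1, at 0.1254, the lowest SLFN11 with RRM2, at -0.0727, and the median 0.0168.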
